A study of Homo sapiens with 12 samples.

Results

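CHD4 silencing in 501Mel human melanoma cells was compared with the control silencing sequenced beside it. The comparison used 6 of the 12 RNA-seq libraries of the series, 3 from cells that received a control siRNA pool (siCtrl) and 3 from cells that received a CHD4 siRNA pool (siCHD4), which sit in one deposited table. All genes of that table with read counts were members, 31911 in all. 501Mel is an established pigmented melanoma line, and all 6 libraries came from it, so the results describe a single line. RNA was collected at 72 h, and each library was built from 6 ng of RNA by linear cDNA amplification followed by 8 PCR cycles. The figure legends of the study give 3 biological replicates, but do not say whether these were separate cultures. The p-values measure the spread between these libraries, part of which may be technical. In a bulk sample, fewer cells expressing a gene and less RNA per cell cannot be told apart.

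CHD4 is the ATP-dependent helicase of NuRD, a complex that shifts nucleosomes and removes histone acetylation and that also carries histone-binding proteins and methyl-CpG-binding proteins. CHD3 is the closest relative of CHD4 and takes its place in a separate form of the complex. NuRD is best known for keeping genes of other lineages quiet in a differentiated cell. PADI1 and PADI3, which stood at the centre of the study, encode peptidyl arginine deiminases, enzymes that turn arginine residues of proteins into citrulline and that are normally found in the epidermis and hair follicle.

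Promoter sequence is shown first because many of the genes that rose after siCHD4 have promoters poor in CpG, as described further on. The 250 bases before the start of 5 genes are given, read from RefSeq on GRCh38.p14, each 5′ to 3′ on the strand of the gene, with every CG pair in capitals. PADI1 (chr1:17204878-17205127, plus strand), AMHR2 (chr12:53423605-53423854, plus strand) and ARHGAP30 (chr1:161069892-161070141, minus strand) rose after siCHD4 and carry 3, 1 and 3 CG pairs. CNTFR (chr9:34589725-34589974, minus strand) also rose but has a CpG-rich promoter with 38 pairs, and MYO5A (chr15:52529051-52529300, minus strand), which fell, has 33.
PADI1: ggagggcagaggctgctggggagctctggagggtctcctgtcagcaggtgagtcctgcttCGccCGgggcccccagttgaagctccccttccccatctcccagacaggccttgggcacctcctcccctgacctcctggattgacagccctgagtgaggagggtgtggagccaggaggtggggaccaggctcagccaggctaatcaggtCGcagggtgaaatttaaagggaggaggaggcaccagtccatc
AMHR2: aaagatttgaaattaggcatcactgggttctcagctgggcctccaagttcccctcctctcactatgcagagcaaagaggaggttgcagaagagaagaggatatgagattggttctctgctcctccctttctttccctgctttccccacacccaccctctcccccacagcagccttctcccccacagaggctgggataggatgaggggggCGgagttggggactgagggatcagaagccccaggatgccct
ARHGAP30: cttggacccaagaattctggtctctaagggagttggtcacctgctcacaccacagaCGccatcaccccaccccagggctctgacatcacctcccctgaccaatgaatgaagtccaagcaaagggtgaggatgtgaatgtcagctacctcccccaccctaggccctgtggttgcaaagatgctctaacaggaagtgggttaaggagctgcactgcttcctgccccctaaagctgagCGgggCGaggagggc
CNTFR: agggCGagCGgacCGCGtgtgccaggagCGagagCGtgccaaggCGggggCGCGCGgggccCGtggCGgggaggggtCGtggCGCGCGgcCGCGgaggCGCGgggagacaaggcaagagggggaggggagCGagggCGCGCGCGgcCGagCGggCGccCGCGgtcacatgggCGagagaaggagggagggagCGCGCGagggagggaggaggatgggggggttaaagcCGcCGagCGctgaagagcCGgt
MYO5A: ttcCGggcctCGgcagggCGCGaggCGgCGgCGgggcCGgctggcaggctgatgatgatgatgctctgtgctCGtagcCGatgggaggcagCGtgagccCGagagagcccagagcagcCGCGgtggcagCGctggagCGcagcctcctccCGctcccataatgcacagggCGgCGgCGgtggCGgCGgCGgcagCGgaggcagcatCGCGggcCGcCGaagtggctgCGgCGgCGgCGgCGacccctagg

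CHD4 RNA itself was lower in every siCHD4 library. CHD4 (ENSG00000111642, chr12:6679248-6723690 on GRCh37) stood at 567.5, 488.4 and 591.3 counts-per-million (CPM, scaled by the trimmed mean of M-values over the 6 libraries) in siCtrl replicates 1 to 3 and at 79.6, 58.6 and 63.3 CPM in siCHD4. The groups did not overlap, and every siCHD4 library lay far below the lowest control. The log2 fold change was -3.03 ± 0.22 (SE, n = 3 and 3; edgeR quasi-likelihood test, adjusted p = 0.000724), and without siCtrl replicate 3 it was -2.96 ± 0.15 (adjusted p = 2.91e-08). Of the exon bases of CHD4, 46.9% are shared with another annotated gene on the same strand, so part of the remaining signal could belong to that gene.

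The relative that was not targeted did not fall. CHD3 measured 104.1, 104.2 and 135.9 CPM in siCtrl and 139.9, 162.4 and 164.9 CPM in siCHD4, without overlap. Its log2 fold change was 0.44 ± 0.20 (edgeR, adjusted p = 0.259), and 0.60 ± 0.13 without siCtrl replicate 3 (adjusted p = 0.0034), in both cases under the limit of 1 used to call a gene. CHD5, the neuronal member of the family, was near silent in siCtrl (0.233 ± 0.0514 CPM, SD, n = 3) and rose to 1.30 ± 0.157 CPM (log2 fold change 2.47 with 6 libraries and 2.46 without siCtrl replicate 3). Of the 15 NuRD subunits tested, CHD4 fell, CHD5 rose and the remaining members were not called in either fit.

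Both deiminase genes rose from a near-silent state. PADI3 (chr1:17575593-17610728 on GRCh37) had 1, 2 and 1 reads in the siCtrl libraries and 336, 307 and 426 reads in the siCHD4 libraries, or 0.0106, 0.0263 and 0.0273 CPM against 3.87, 3.57 and 3.97 CPM. The ratio of its scaled counts was 198, with a 95% counting interval of 77.0 to 727, which covers counting error only. Its fitted log2 fold change was 7.5 ± 0.35 (edgeR, adjusted p = 0.000248) and 7.66 ± 0.35 without siCtrl replicate 3 (adjusted p = 1.63e-08). PADI1 (chr1:17531623-17572502), its neighbour on the same strand, stood at 0.190, 0.224 and 0.463 CPM in siCtrl and at 3.39, 3.08 and 3.73 CPM in siCHD4. Its log2 fold change was 3.63 ± 0.36 (edgeR, adjusted p = 0.00212) and 4.06 ± 0.25 without siCtrl replicate 3 (adjusted p = 9.41e-08). Both genes kept their call whichever single library was left out. PADI1 and PADI3 belong to 12 genes taken from the RT-qPCR assays and primers of the study, of which 9 rose and 3 fell in both fits (MAP2, SERPINB2 and ARHGAP44). The study chose that list on these samples, so it is not independent evidence of direction.

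The 6 libraries held 44966728 to 102005319 counts, with siCtrl replicate 3 the smallest, and from 21878 to 26382 genes had at least 1 read. Mitochondrial transcripts took 1.57 to 2.13% of the counts and ribosomal protein genes 4.18 to 6.57%. The siCtrl libraries were not alike in base composition. Genes whose transcripts exceed 60% GC took 5.6%, 9.0% and 15.3% of the counts in siCtrl replicates 1, 2 and 3 and 7.9%, 9.1% and 8.3% in siCHD4. Set against the siCHD4 mean, genes under 40% GC had a median log2 ratio of 0.27 in siCtrl replicate 1, 0.04 in replicate 2 and -0.79 in replicate 3, and genes over 60% GC had -0.52, 0.14 and 1.21. Replicate 3 thus held fewer counts from AT-rich and more from GC-rich genes than the other libraries, and replicate 1 tilted the other way by a smaller amount. For this reason the tests were run with all 6 libraries and again without siCtrl replicate 3.

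**Figure D1:**
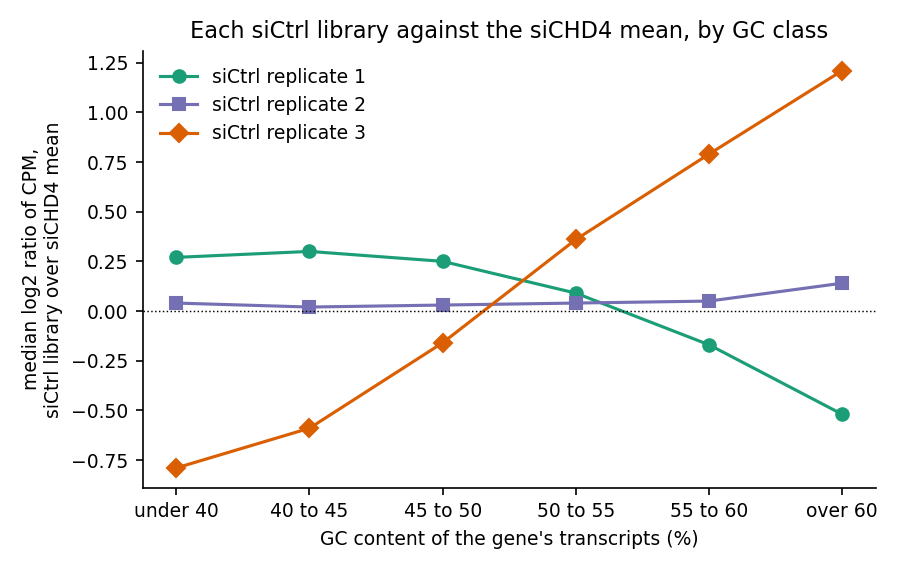
Median log2 ratio of CPM in each siCtrl library to the mean of the siCHD4 libraries (vertical axis) for genes grouped by the GC content of their transcripts in percent (horizontal axis), with a line for each siCtrl library. Replicate 2 stays between 0.02 and 0.14, replicate 3 climbs from -0.79 to 1.21 and replicate 1 goes from 0.27 to -0.52.

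The cells kept the RNA of pigment cells. The 7 melanocyte markers summed to 17500, 15090 and 19900 CPM in siCtrl and to 21430, 20240 and 20830 CPM in siCHD4. Each siCHD4 sum thus lay above each siCtrl sum. Of the 7 markers, 6 had a positive log2 fold change with 6 libraries and 5 without siCtrl replicate 3, and none was called in either fit. MITF, the transcription factor that drives the pigment programme, stood at 709.7, 564.8 and 264.0 CPM in siCtrl and at 539.0, 557.7 and 565.9 CPM in siCHD4. SOX10, the neural crest factor that acts above it, stood at 572.9, 735.5 and 1949 CPM in siCtrl and at 601.6, 635.7 and 597.4 CPM in siCHD4. In both genes the siCHD4 libraries lay within or beside the range of siCtrl replicates 1 and 2, and siCtrl replicate 3 stood apart in opposite directions. The log2 fold change of MITF was 0.11 with 6 libraries and -0.18 without siCtrl replicate 3, that of SOX10 was -0.83 and -0.08, and edgeR called neither (smallest adjusted p = 0.318). Among 30 pigment cell genes tested, 0 were called with 6 libraries and 1 without siCtrl replicate 3, BIRC7, an inhibitor of apoptosis (log2 fold change 0.35 and 1.19; edgeR, adjusted p = 0.024 without that library). DCT, a melanin synthesis enzyme chosen here after its values were seen, stood at 611.4, 552.7 and 288.6 CPM in siCtrl and at 1004, 1038 and 1054 CPM in siCHD4, without overlap. Its log2 fold change was 1.09 with 6 libraries (adjusted p = 0.0653) and 0.84 without siCtrl replicate 3 (adjusted p = 0.000243), so that it missed a threshold in each fit, and it was called without siCtrl replicate 1 (1.3, adjusted p = 0.0451) and with an offset for GC content (1.01, adjusted p = 0.000805).

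Markers of other cell types were present at low levels. The endothelial markers summed to 0.619 to 0.682 CPM in siCtrl and 4.19 to 5.27 CPM in siCHD4, and CDH5, KDR, VWF and TIE1 were called higher in both fits, while PECAM1 was not matched in the table and was not analysed here. Myeloid markers summed to 1.34 to 1.66 CPM against 2.60 to 3.20 CPM, B cell markers to 0.0317 to 0.136 CPM against 0.205 to 0.594 CPM, and the T and NK cell markers to 0 CPM against 0.0186 to 0.0346 CPM, with CD3E listed without values. No T and NK cell marker passed the filter in either fit, so none was tested. Of the 5 myeloid markers, 4 were tested, and 2 were called higher with 6 libraries and 3 without siCtrl replicate 3. The germ cell markers summed to 0.0545 to 0.145 CPM against 1.61 to 2.51 CPM with DAZL listed without values, and the skeletal muscle markers to 0.180 to 0.327 CPM against 0.316 to 0.687 CPM with MYH1 listed without values. The germ cell, skeletal muscle and B cell markers each had 1 member called higher in both fits. The part of other cell types in the results was not tested. Fibroblast markers (6.76 to 9.98 against 8.00 to 8.67 CPM) and keratinocyte markers (15.1 to 23.0 against 11.8 to 16.9 CPM) overlapped between the groups, and KRT14 was listed without values. The skeletal muscle sums given above also overlapped. The sum of the neuronal markers went the other way, from 61.7 to 78.0 CPM in siCtrl to 26.4 to 27.3 CPM in siCHD4. Of the 4 neuronal markers tested, 1 was called higher and 2 lower with 6 libraries, and 0 and 2 without siCtrl replicate 3.

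Far more genes were called higher than lower, and the excess lay mainly among weakly expressed genes. With all 6 libraries, 817 of the 17018 genes tested (4.8%) were called higher and 280 (1.65%) lower, where a call needed a change of more than 1 on the log2 scale in either direction and an adjusted p below 0.05 in edgeR's quasi-likelihood test. Without siCtrl replicate 3, 1551 of 17571 genes (8.83%) were called higher and 479 (2.73%) lower. The calls overlapped as 797 genes higher in both fits (4.68% of those tested in the 6-library fit) and 240 lower in both (1.41%), and no gene was called in opposite directions. Thus 97.6% of the higher calls with 6 libraries were also made without siCtrl replicate 3, and 51.4% of the higher calls without it were also made with it. In 2857 genes (16.8%) every siCHD4 library lay above every siCtrl library, and in 2464 genes (14.5%) every siCHD4 library lay below. Without siCtrl replicate 3 these shares were 28.1% and 26.9% of the genes tested. At a mean under 0.5 CPM, 331 genes were called higher and 24 lower with 6 libraries, and 740 and 120 without siCtrl replicate 3. At 8 to 32 CPM the counts were 58 and 68, and 104 and 78. Over 32 CPM they were 39 and 40, and 78 and 46. Over all genes tested, 7707 log2 fold changes were positive with 6 libraries and 8857 without siCtrl replicate 3.

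The number of calls followed the single libraries. It was 848 higher and 536 lower without siCtrl replicate 1, 260 and 52 without siCtrl replicate 2, 232 and 29 without siCHD4 replicate 1, 300 and 38 without siCHD4 replicate 2, and 340 and 44 without siCHD4 replicate 3. The biological coefficient of variation, the spread between replicates in the model, was 0.29 with 6 libraries, 0.14 without siCtrl replicate 3, 0.236 without siCtrl replicate 1 and 0.316 to 0.335 in the other 4 fits. Higher calls outnumbered lower calls in every one of these fits. Adding an offset for transcript GC content gave 1208 higher and 423 lower with 6 libraries and 1606 and 491 without siCtrl replicate 3, and 781 genes were higher and 218 lower in all 4 of these fits.

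**Figure D2:**
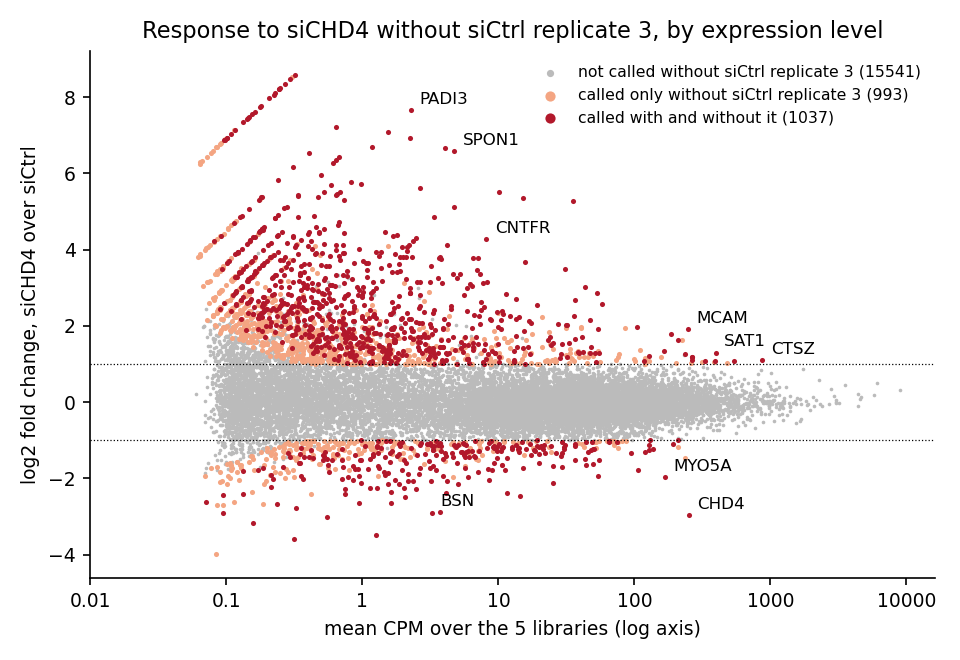
Log2 fold change of siCHD4 over siCtrl (vertical axis) against mean CPM (horizontal log axis) for the 17571 genes tested without siCtrl replicate 3, coloured by whether a gene was called in both fits, only without siCtrl replicate 3, or not. The higher calls fan out at low expression, where genes with a few or no siCtrl reads form diagonal lines, whereas the lower calls end at -3.98.

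The rising genes were mostly weakly expressed in siCtrl. Of the 797 genes higher in both fits, 77.7% stood under 1 CPM in siCtrl, compared with 27.8% of the genes tested. Only 18 of them had no read in any siCtrl library, and their fitted fold changes depend on the prior count. The median level of all 797 went from 0.230 CPM in siCtrl to 1.09 CPM in siCHD4, their median log2 fold change without siCtrl replicate 3 was 2.40 (also with genes without siCtrl reads set at the bound that a floor of 3 counts gives), and 62.4% exceeded 2. The 240 genes lower in both fits were expressed genes, with a median of 6.10 CPM in siCtrl and 2.1 CPM in siCHD4 and a median log2 fold change of -1.40. By level over all libraries, higher calls took 18.7% of the genes under 0.5 CPM and 20% of those between 0.5 and 2 CPM without siCtrl replicate 3, but 1.31% of those over 32 CPM. With 6 libraries the same shares were 9.65%, 12.1% and 0.663%. These shares describe the calls, since small changes of weakly expressed genes could not be called at this depth. A gene near silent in siCtrl was tested only where its siCHD4 counts passed the filter, and it could only be called higher. A gene called lower had to be expressed in siCtrl. The contrast in level between rising and falling genes was thus partly set by the filter and the call rule.

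Promoters poor in CpG were frequent among the rising genes. Observed over expected CpG was taken over 300 bases of each protein-coding gene with a promoter in the RefSeq table, from 250 bases before to 50 after the start. Without siCtrl replicate 3, higher calls took 23.9% of genes with a ratio under 0.25, 21.4% at 0.25 to 0.4, 12.9% at 0.4 to 0.6, 5.68% at 0.6 to 0.8 and 3.46% over 0.8. With 6 libraries the shares were 15.7%, 11.7%, 6.77%, 3.2% and 1.65%. Lower calls took 2.46 to 3.7% of every class without siCtrl replicate 3 and 1.47 to 2.48% with it, a narrower range than that of the higher calls, although with 6 libraries the share also fell from class to class. The CG pair itself (letters CG, the same on both strands) was counted in the same windows. The median was 26 pairs over the genes tested, 13 among those higher with 6 libraries, 15 among those higher without siCtrl replicate 3, and 24 among those lower in either fit. Windows with 5 or fewer pairs made up 28.8% and 24.5% of the higher genes in these fits, 8.3% and 8.4% of the genes tested, and 34.4% of all 27305 promoters in the reference table.

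Genes of low expression often have CpG-poor promoters, and the levels differed between the classes, so the share was read again within each level. The level was the mean CPM over all libraries of the fit, siCHD4 included. Rising genes therefore tended to stand lower in siCtrl than the other genes of their level. A ratio under 0.6 was found without siCtrl replicate 3 in 58.1% of the higher genes and 48.8% of the genes tested under 0.5 CPM. Between 0.5 and 2 CPM it was 54.0% and 38.8%, between 2 and 8 CPM 57.7% and 24.6%, between 8 and 32 CPM 38.9% and 15.3%, and over 32 CPM 30.4% and 10.0%. With 6 libraries the pairs of values from the lowest to the highest level were 66.9% and 49.1%, 56.3% and 39.4%, 49.3% and 23.8%, 43.6% and 15.1%, and 25.9% and 10.0%. The share of CpG-poor promoters was thus higher among the rising genes in all 5 levels of both fits. Because the genes were not matched for their level in siCtrl, these shares cannot separate promoter type from low expression in siCtrl. Falling genes were also above the genes tested between 8 and 32 CPM, at 35.0% of 60 genes with 6 libraries and 30.4% of 69 without siCtrl replicate 3, and under 0.5 CPM with 6 libraries (6 of 11 genes), and below them in the other levels. No test was run on these shares. The printed sequences show that the property was not shared by all rising genes. CNTFR, the receptor for ciliary neurotrophic factor, has 38 CG pairs and stood at 0.602, 0.777 and 2.29 CPM in siCtrl and at 12.1, 15.0 and 12.4 CPM in siCHD4, without overlap (log2 fold change 3.49 with 6 libraries and 4.28 without siCtrl replicate 3).

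**Figure D3:**
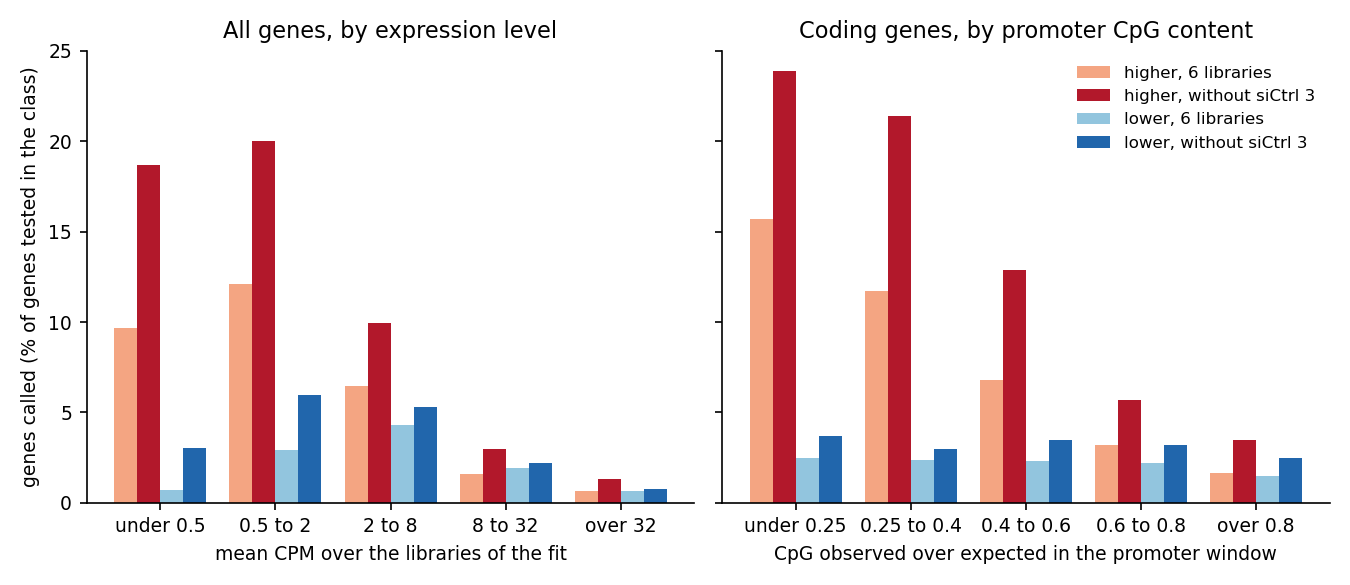
Share of tested genes called higher and lower (vertical axis, percent) by mean CPM over the libraries and by promoter CpG observed over expected (horizontal axes), with 6 libraries and without siCtrl replicate 3. The higher calls fall from 23.9% in the most CpG-poor class to 3.46% in the richest without siCtrl replicate 3, while the lower calls stay between 2.46 and 3.7%.

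Long noncoding RNAs were called higher more often than coding genes, at 9.39% against 4.18% with 6 libraries and 16.1% against 7.8% without siCtrl replicate 3. Genes of all types under 0.5 CPM were called higher at 9.65% and 18.7% in these fits. Coding genes on the X chromosome were called higher in 42 of 499 cases (8.42%) with 6 libraries and in 62 of 503 (12.3%) without siCtrl replicate 3. Rising coding genes had a rising nearest neighbour more often than the genes tested, although most of them did not have one. In the fit without siCtrl replicate 3 the nearest coding neighbour was itself called higher for 11.6% of the rising genes, 6.96% of the genes tested and 5.66% of the falling genes, and with 6 libraries for 8.06%, 3.61% and 3.63%. No test was run on these shares, and none was matched for expression level. Examples were the adjacent leukocyte integrin genes ITGAM, ITGAX and ITGAD on chromosome 16, PADI1 and PADI3 on chromosome 1, and the sterol transporter genes ABCG5 and ABCG8. CRYAB and HSPB2 are also neighbours, but 85.3% of the exon bases of HSPB2 are shared with other genes on its strand, so its count is uncertain.

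Among abundant genes, those with the largest gains in CPM included a lysosomal protease, enzymes of polyamine metabolism, an adhesion molecule and mitochondrial proteins. CTSZ, a lysosomal cysteine protease, stood at 533.6, 509.0 and 527.5 CPM in siCtrl and at 1139, 1111 and 1082 CPM in siCHD4. Its groups lay far apart, and the log2 fold change was 1.09 ± 0.16 (edgeR, adjusted p = 0.00877) and 1.11 ± 0.13 without siCtrl replicate 3 (adjusted p = 2.47e-05). Reads of CTSZ may include those of a gene on the opposite strand, which covers 31.7% of its exon bases. ODC1, the first enzyme of polyamine synthesis, stood at 372.8, 279.6 and 327.9 CPM against 709.6, 666.2 and 669.4 CPM. SAT1, the acetyltransferase that starts polyamine breakdown, stood at 227.1, 200.4 and 179.8 CPM against 614.7, 467.0 and 479.2 CPM. Enzymes for making and for breaking down polyamines therefore rose side by side, by log2 fold changes of 1.06 and 1.36 with 6 libraries (adjusted p = 0.0151 and 0.00872 in edgeR) and of 1.08 and 1.30 without siCtrl replicate 3.

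MCAM, the melanoma cell adhesion molecule, went from 86.4, 100.7 and 112.7 CPM to 334.1, 349.6 and 362.1 CPM. PCCA, a subunit of the mitochondrial propionyl-CoA carboxylase, went from 80.6, 72.4 and 63.6 CPM to 295.6, 244.1 and 239.2 CPM. The log2 fold changes were 1.80 and 1.91 for MCAM and 1.85 and 1.78 for PCCA with and without siCtrl replicate 3 (edgeR, adjusted p = 0.00263 and 0.00298 with 6 libraries). MCAM and PCCA were the only ones of the 10 most increased genes whose call held whichever library was left out. SPP1, the secreted phosphoprotein osteopontin, stood at 146.1, 111.2 and 70.8 CPM in siCtrl and at 322.7, 289.9 and 299.6 CPM in siCHD4, with log2 fold changes of 1.47 and 1.26. The other members of these 10 were CALU and ARF4, which act in the secretory pathway, HPGD, which inactivates prostaglandins, and SLC25A44, a mitochondrial carrier, with log2 fold changes of 1.03 to 1.29 with 6 libraries and 1.08 to 1.19 without siCtrl replicate 3.

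The largest losses after CHD4 itself concerned cytoskeletal, signalling and membrane proteins. MYO5A, the myosin motor that carries melanosomes to the cell edge, stood at 321.4, 288.0 and 141.8 CPM in siCtrl and at 68.9, 80.3 and 80.9 CPM in siCHD4. The groups did not overlap although siCtrl replicate 3 lay well below the other controls, and the log2 fold change was -1.71 ± 0.32 (edgeR, adjusted p = 0.0192) and -1.97 ± 0.13 without that library (adjusted p = 1.56e-07). MINK1, a kinase of the JNK pathway, stood at 75.8, 91.5 and 219.7 CPM against 26.0, 27.7 and 27.6 CPM. There siCtrl replicate 3 was the high control, and its removal moved the log2 fold change from -2.25 to -1.61. MARCKSL1, an actin-binding protein, showed the same tilt, at 264.5, 297.5 and 513.3 CPM against 144.8, 127.6 and 119.9 CPM (log2 fold change -1.45 and -1.09). NCS1, a neuronal calcium sensor, stood at 139.0, 158.5 and 191.5 CPM against 59.2, 58.4 and 57.3 CPM (-1.48 and -1.33). LZTS1, SPG21, SEMA4C, TRIB2 and PATL1 completed the 10 genes with the largest loss, with log2 fold changes of -1.48 to -1.0 with 6 libraries and -1.26 to -1.0 without siCtrl replicate 3. Of the 10, CHD4 alone kept its call whichever library was left out.

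**Figure D4:**
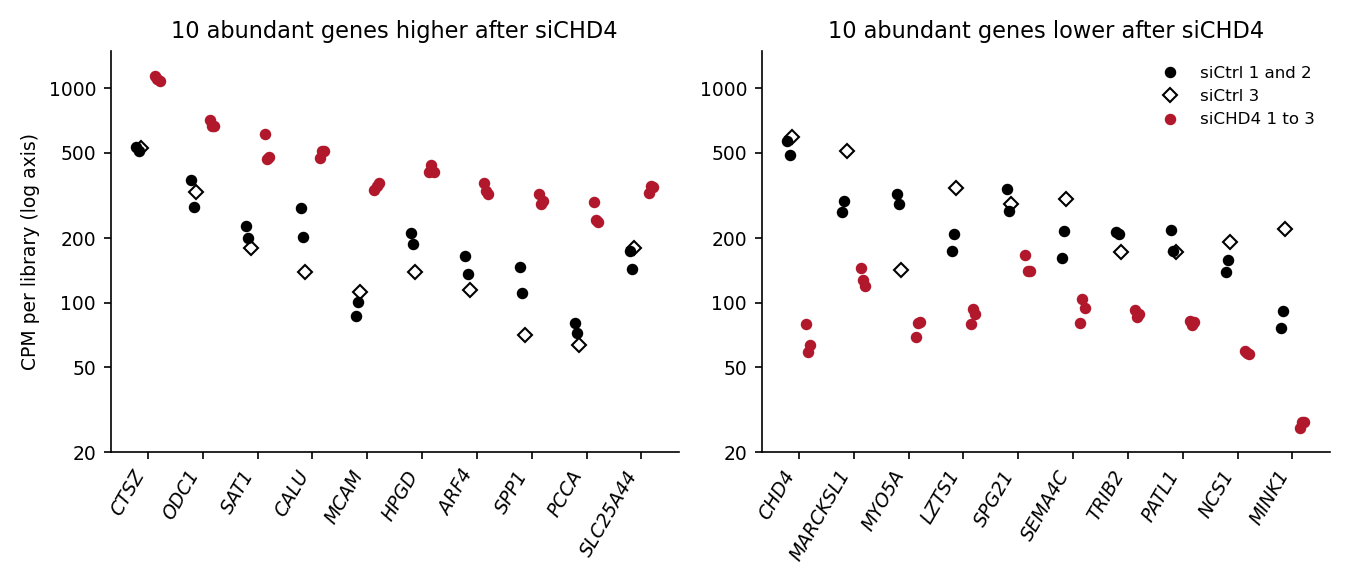
CPM in each library (vertical log axis) of the 10 genes with the largest gain and the 10 with the largest loss of mean CPM among genes called in both fits, with siCtrl replicate 3 marked apart. The genes were chosen to have all siCHD4 points on a single side of the siCtrl points, and CHD4 shows the widest gap, from 488.4 to 591.3 CPM down to 58.6 to 79.6 CPM.

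The largest fold changes among well counted genes came from a handful of control reads. The 10 genes below reached a mean normalized count of at least 50 in siCHD4, and the fitted values above that of PADI3, up to 8.43 with 6 libraries, belong to genes with no siCtrl read and depend on the prior count. ARHGAP30 (chr1:161016736-161039760 on GRCh37), a GTPase activating protein of blood cells, had 3, 8 and 5 reads in siCtrl and 575, 574 and 719 in siCHD4, or 0.0317, 0.105 and 0.136 CPM against 6.62, 6.68 and 6.69 CPM. The siCHD4 libraries were almost identical, and the fitted log2 fold change was 6.33 ± 0.42 (edgeR, adjusted p = 0.000655) and 6.67 ± 0.31 without siCtrl replicate 3. AMHR2 (chr12:53817639-53825456), the receptor for anti-Müllerian hormone, had 6, 9 and 1 reads against 398, 347 and 472, with fitted log2 fold changes of 5.81 and 5.61. CPNE6, a brain copine that binds membranes when calcium rises, had 1, 0 and 0 reads against 117, 71 and 107. With a single control read the ratio of scaled counts for CPNE6 was 218 with a 95% counting interval of 38.9 to 8649, so its rank among the largest changes is not firm. SOHLH1, a germ cell transcription factor, went from 4 to 540 reads over the 3 libraries of each group, SPON1, an extracellular matrix protein, from 18 to 2207, ITGAD from 6 to 708, and IP6K3, an inositol hexakisphosphate kinase, from 10 to 1038. SRL and KCNJ12, a sarcoplasmic reticulum protein and a potassium channel of muscle, went from 5 to 451 and from 3 to 282 reads. All 10 of these genes, PADI3 among them, kept their call whichever single library was left out.

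A few genes combined a large fold with a level over 20 CPM in siCHD4. They were chosen after their values were seen. RDH8, a photoreceptor retinol dehydrogenase, stood at 1.33, 1.67 and 2.13 CPM in siCtrl and at 56.3, 58.5 and 57.8 CPM in siCHD4. Its log2 fold change was 5.08 ± 0.27 (edgeR, adjusted p = 0.000406) and 5.28 ± 0.18 without siCtrl replicate 3. GDPD3, a lysophospholipase D, stood at 0.444, 0.817 and 1.23 CPM against 28.0, 24.3 and 22.7 CPM, with log2 fold changes of 4.96 and 5.35. The siCHD4 levels of both genes were close together, and their control levels were highest in siCtrl replicate 3. The same order in the controls held for DOK3, an adaptor of immune receptor signalling (3.54, 5.26 and 9.57 CPM against 44.9, 53.3 and 47.8 CPM), and for PPY, the pancreatic polypeptide hormone (6.50, 10.1 and 19.3 CPM against 68.8, 65.5 and 64.1 CPM). DOK3 had log2 fold changes of 3 and 3.49 and PPY of 2.47 and 3.01. PLAGL2, a zinc finger transcription factor, fell from 108.4, 88.5 and 89.4 CPM to 25.2, 23.6 and 26.7 CPM (log2 fold change -1.92 and -1.95).

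The 10 largest falls by fold change included CHD4 itself. BSN, which encodes the presynaptic scaffold bassoon, stood at 5.32, 8.33 and 13.5 CPM in siCtrl and at 0.749, 1.00 and 0.949 CPM in siCHD4. Its log2 fold change was -3.32 ± 0.37 (edgeR, adjusted p = 0.00334) and -2.90 ± 0.22 without siCtrl replicate 3. B4GALNT1, the synthase of the gangliosides GM2 and GD2, stood at 7.46, 8.17 and 12.7 CPM against 0.875, 1.11 and 1.14 CPM, with log2 fold changes of -3.18 and -2.89. A gene on the opposite strand covers 27.1% of its exon bases. ARHGAP44 fell from 0.581, 0.830 and 0.981 CPM to 0.0576, 0.0466 and 0.0651 CPM, the largest fall of the list (-3.76 and -3.58), on 154 reads in siCtrl and 16 in siCHD4. KIAA0319, TPBGL, ANG, ITGA11, DNAAF3 and ENHO completed the list together with CHD4, with log2 fold changes of -3.41 to -2.71 with 6 libraries. ENHO lost its call in 4 of the 6 fits that left out a library, DNAAF3 in 1, and the others in none.

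Gene groups were then read one by one, as counts of members called beside the shares over all genes tested (4.8% higher and 1.65% lower with 6 libraries, 8.83% and 2.73% without siCtrl replicate 3). The groups were drawn up with earlier results of these data known, so their counts are descriptions. The shares over all genes were not matched to the expression level of a group. Members near silent in siCtrl were tested only where their siCHD4 counts passed the filter, and these could only be called higher. The shares, medians and counts of 0 lower in such groups were thus partly set by the filter. The lists held 59 blood cell, 26 endothelial, 50 striated muscle, 49 epidermal and desmosome and 48 germ cell and cancer-testis genes, more than were tested. Apart from the RT-qPCR and primer genes of the study and the cell type marker sets, blood cell genes gave the largest share of higher calls. Of 33 tested, 19 were higher and 0 lower with 6 libraries, and of 36 tested without siCtrl replicate 3, 23 were higher and 0 lower, with medians of 2.06 and 2.16 against -0.06 and 0.00 over all genes. Without siCHD4 replicate 1 the count fell to 11. ITGAX, the integrin of dendritic cells, rose from 1.13 ± 0.257 to 10.9 ± 1.00 CPM (SD, n = 3 and 3; log2 fold change 3.28 and 3.46). BTK, the tyrosine kinase of the B cell receptor, stood at 5.98, 3.94 and 2.40 CPM in siCtrl and at 29.0, 28.0 and 29.3 CPM in siCHD4. CD79B, a signalling chain of the same receptor, rose from 0.407 ± 0.357 to 3.51 ± 0.195 CPM (3.24 and 4.12). RAC2, a small GTPase of blood cells, went from 5 reads over the 3 siCtrl libraries to 379 in siCHD4. These genes are known from B cells, myeloid cells and other leukocytes, whose markers are given above. ZAP70, the kinase of the T cell receptor, was not called with 6 libraries and was called without siCtrl replicate 1, without siCtrl replicate 3 and with the GC offset (4.08, 9.10 and 16.4 CPM against 28.6, 33.6 and 29.6 CPM, log2 fold change 2.23 and edgeR adjusted p = 0.00971 without siCtrl replicate 3).

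Endothelial genes included 5 higher of 12 tested with 6 libraries and 6 of 13 without siCtrl replicate 3, and 0 lower in either. KDR and TIE1, receptors of vascular endothelium, rose from 0.118 ± 0.0537 to 1.31 ± 0.167 CPM and from 0.245 ± 0.199 to 2.01 ± 0.209 CPM (SD, n = 3 and 3). MMRN2, CDH5 and VWF were the other members called in both fits, and 2 to 6 members were called when a library was left out. Striated muscle genes included 6 higher of 26 and 12 higher of 27, and 0 lower. MYOZ1 and MYOZ2, proteins of the sarcomere Z-disc, rose with log2 fold changes of 3.70 and 1.98 with 6 libraries and 4.06 and 1.95 without siCtrl replicate 3, and RYR1, the calcium release channel of skeletal muscle, of 3.21 and 3. The number of muscle genes called fell to 3 when siCtrl replicate 2 or either of the first 2 siCHD4 replicates was left out.

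Epidermal and desmosome genes included 7 higher of 23 with 6 libraries and 9 higher of 24 without siCtrl replicate 3, and 0 lower. PPL, the cornified envelope protein periplakin, stood at 0.327, 0.422 and 0.981 CPM in siCtrl and at 15.2, 17.1 and 17.7 CPM in siCHD4. Its log2 fold change was 4.93 ± 0.43 (edgeR, adjusted p = 0.0014) and 5.50 ± 0.21 without siCtrl replicate 3 (adjusted p = 2.30e-09). GRHL3, a transcription factor of the skin barrier, rose from 0.0510 ± 0.0270 to 0.776 ± 0.0541 CPM, and PADI1 and PADI3 are members of the same group. Of the keratins, 2 of 10 tested were higher in both fits, KRT23 and KRT79. The keratinocyte markers, as given above, did not follow.

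Germ cell and cancer-testis genes included 8 higher of 24 with 6 libraries and 9 of 24 without siCtrl replicate 3, and 0 lower. CTCFL, the testis paralogue of the insulator protein CTCF, stood at 0.180, 0.198 and 0.0545 CPM in siCtrl and at 6.02, 4.96 and 5.42 CPM in siCHD4 (log2 fold change 5.11 and 4.87). TEX19, a germ line and placental gene, stood at 8.74, 8.52 and 9.35 CPM against 59.2, 52.9 and 53.5 CPM (2.64 and 2.69), with a gene on the opposite strand over 43.8% of its exon bases. The MAGE family of cancer-testis antigens split, with 5 higher and 1 lower of 23 tested with 6 libraries and 6 and 1 without siCtrl replicate 3. MAGEC2, MAGEA10 and MAGEB6 rose, by log2 fold changes of 2.12, 1.83 and 1.69 with 6 libraries and 1.97, 1.70 and 1.53 without siCtrl replicate 3. MAGEE1, which is not restricted to the testis, fell by 1.84 and 1.73 on the log2 scale. Without siCtrl replicate 2 the number of MAGE genes called higher dropped to 1.

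Genes of ion channels and pumps were called higher in larger shares than all genes, a comparison not matched for expression level. Genes under 0.5 CPM were called higher at 9.65% with 6 libraries and 18.7% without siCtrl replicate 3, and those of 0.5 to 2 CPM at 12.1% and 20%. Calcium channels and pumps gave 6 higher of 30 with 6 libraries and 10 of 30 without siCtrl replicate 3, with 1 lower in each fit. Sodium pumps and channels gave 5 of 16 and 6 of 18, with 0 and 1 lower, and potassium channels 7 of 49 and 15 of 53, with 0 lower. ATP2B3, a calcium pump of the plasma membrane, rose from 0.287 ± 0.162 to 3.99 ± 0.325 CPM (log2 fold change 3.88 and 4.31), and CACNA2D2, an auxiliary calcium channel subunit, from 0.353 ± 0.155 to 3.68 ± 0.521 CPM (3.45 and 3.8). KCNJ10, a potassium channel of glia, rose from 2.59, 2.31 and 2.07 CPM to 17.5, 17.1 and 17.4 CPM (2.90 and 2.84). These counts depended on single libraries, since the lowest numbers of higher calls when a library was left out were 3 for calcium, 1 for sodium and 2 for potassium genes.

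**Figure D5:**
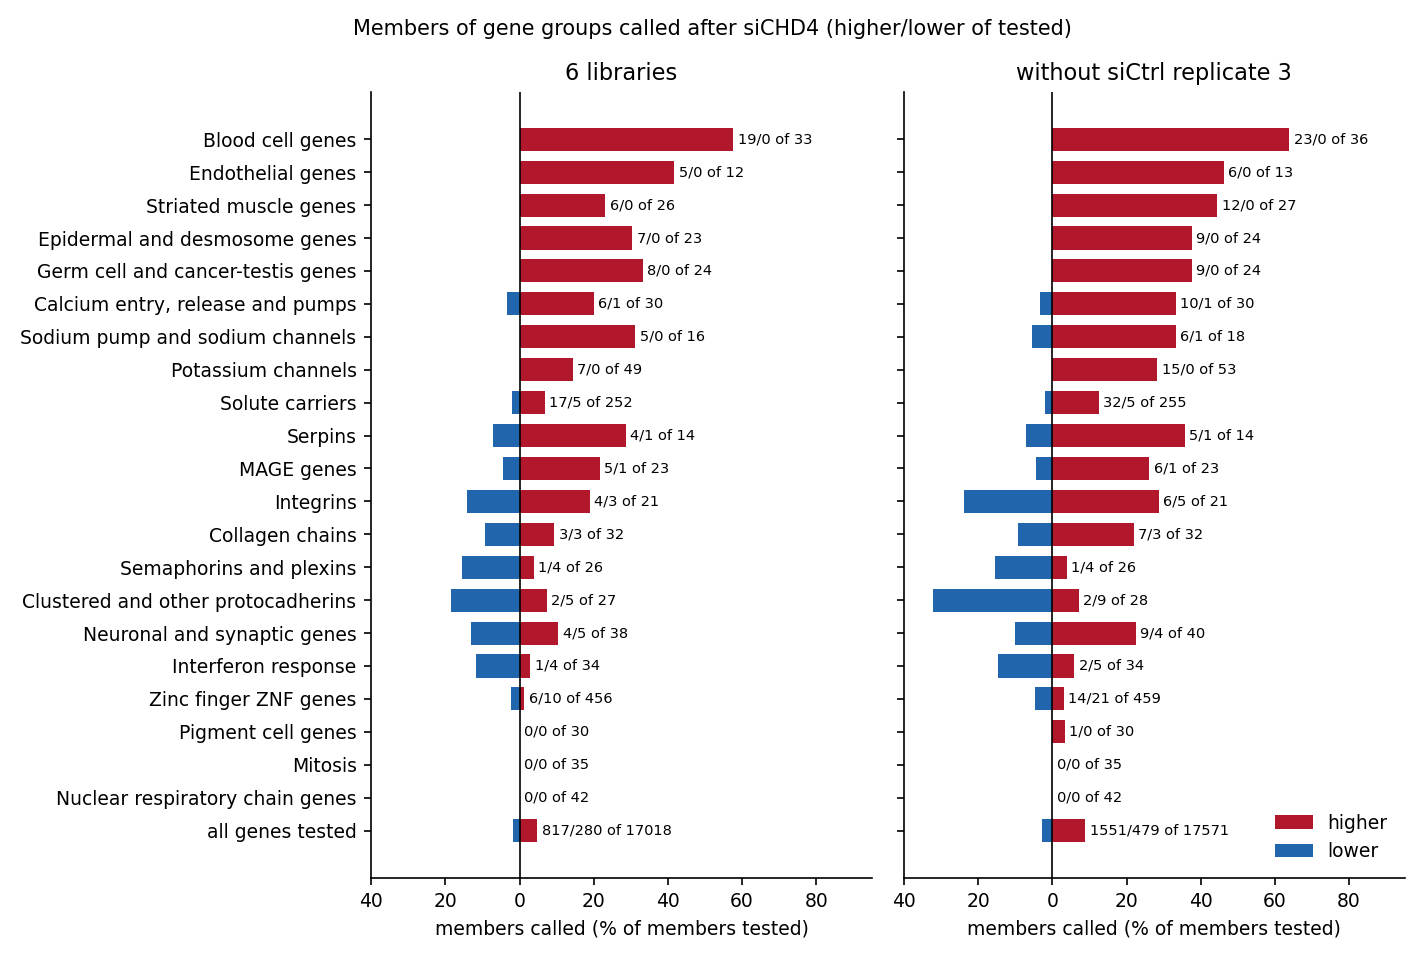
Members of each gene group called higher (to the right) and lower (to the left) as a percentage of the members tested, with 6 libraries and without siCtrl replicate 3. Blood cell genes reach 19 of 33 and 23 of 36 members higher, and the semaphorins, protocadherins and interferon response genes lie mainly to the left.

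Some groups moved in both directions or mainly down. Among neuronal and synaptic genes, 4 were higher and 5 lower of 38 tested with 6 libraries, and 9 were higher and 4 lower of 40 without siCtrl replicate 3, so that the balance turned with that library. In both fits 3 were higher (CPNE6, DLG4 and NLGN3) and 4 lower (MAP2, BSN, RIMS3 and SYP). When a library was left out, from 1 to 9 were higher and from 3 to 7 lower. MAP2, the dendritic microtubule-associated protein, stood at 31.9, 25 and 17.3 CPM in siCtrl and at 4.79, 5.09 and 5.54 CPM in siCHD4 (log2 fold change -2.27 and -2.45). Semaphorins and plexins, guidance ligands and their receptors, gave 1 higher and 4 lower of 26 in both fits. Across the fits that left out a library, 0 to 1 were higher and 1 to 4 lower. SEMA4F, SEMA4G, SEMA4C and SEMA6C fell, by 1.26 to 1.83 on the log2 scale with 6 libraries, and SEMA3F rose (1.74). Protocadherins gave 2 higher and 5 lower of 27 with 6 libraries and 2 and 9 of 28 without siCtrl replicate 3. With single libraries left out, 0 to 2 protocadherins were higher and 0 to 9 lower. The gamma cluster genes among them share 43.3 to 64.4% of their exon bases, and reads cannot be assigned to single members with certainty.

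Integrins moved in both directions. The blood cell integrins ITGAX, ITGAD, ITGAM and ITGB7 rose, whereas the collagen receptors ITGA2 and ITGA11 and the laminin receptor ITGA3 fell, by 2.03, 2.79 and 1.60 on the log2 scale with 6 libraries and by 2.27, 2.64 and 1.12 without siCtrl replicate 3. Collagen chains gave 3 higher and 3 lower of 32 with 6 libraries and 7 and 3 of 32 without siCtrl replicate 3, and from 1 to 7 were higher when a library was left out. COL6A3 rose from 0.454 ± 0.0386 to 6.01 ± 0.770 CPM (SD, n = 3 and 3; log2 fold change 3.73 and 3.76), and COL19A1 fell from 41.5 ± 10.2 to 10.6 ± 0.530 CPM (-1.97 and -2.13). Of 34 interferon response genes, 1 was higher and 4 lower with 6 libraries and 2 and 5 without siCtrl replicate 3. OAS2, an antiviral oligoadenylate synthetase, rose (2.51 and 2.36), and IFI44, IFIT2 and IRF9 fell in both fits (-1.64, -1.60 and -1.61 with 6 libraries). IFI44, IFIT2 and IRF9 each lost the call without siCtrl replicate 2 or any siCHD4 replicate, and 0 to 5 interferon genes were lower across the leave-out fits.

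Solute carriers, the transporters of small molecules across membranes, were read next. Of 252 solute carriers, 17 were higher and 5 lower with 6 libraries, shares of 6.75% and 1.98% that lie near those of all genes, and 32 of 255 (12.5%) were higher and 5 lower without siCtrl replicate 3. SLC24A4, a potassium-dependent sodium and calcium exchanger linked to pigmentation, stood at 22.1, 22.7 and 20.7 CPM in siCtrl and at 4.12, 4.31 and 4.43 CPM in siCHD4, with log2 fold changes of -2.35 and -2.37 and no overlap. SLC6A12, a betaine and GABA transporter, rose from 0.253 ± 0.0643 to 3.03 ± 0.196 CPM (3.62 and 3.82). Zinc finger ZNF genes, the largest class of transcription factors, gave 6 higher and 10 lower of 456 with 6 libraries and 14 and 21 of 459 without siCtrl replicate 3, fewer higher calls than the share over all genes. Long intergenic RNAs gave 12 higher and 1 lower of 102 with 6 libraries and 19 and 2 of 106 without siCtrl replicate 3, among them LINC00645, which rose from 3.89 ± 1.03 to 19.7 ± 1.26 CPM. Across the fits that left out a library, 4 to 19 long intergenic RNAs were higher and 0 to 4 lower. In the same fits 2 to 32 solute carriers were higher and 1 to 7 lower, and 1 to 14 ZNF genes were higher and 2 to 21 lower.

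Several groups held no called gene in either fit. Over 32 CPM, 0.663% of genes were called higher and 0.681% lower with 6 libraries and 1.31% and 0.773% without siCtrl replicate 3, so that counts of 0 in groups of abundant genes lie near those shares. The groups were the 35 mitosis genes tested, 42 nuclear genes of the respiratory chain, 13 genes of the mitochondrial genome, 25 of cholesterol synthesis, 21 endoplasmic reticulum chaperones, 21 of antigen presentation, 27 Polycomb subunits, 19 ERK feedback genes and 9 SOX factors, as well as the SWI/SNF subunits (25 and 26 tested). Among 26 glycolysis genes, ENO2, the neuronal enolase, was called, and only without siCtrl replicate 3. A missing call does not show an absence of change, since changes near or somewhat above the limit of 1 on the log2 scale can also go uncalled at this spread between replicates.

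The most abundant genes whose call rested on siCtrl replicate 3 lay near the limit of 1 in at least one fit. KCNAB2, ENO2, ST3GAL4, SLC6A8 and MS4A15 were the most abundant genes called higher only without that library, with log2 fold changes of 1.02 to 1.63 there and 0.58 to 1.03 with it. KCNAB2, an auxiliary potassium channel subunit, shows the pattern, at 256.0, 344.8 and 603.5 CPM in siCtrl against 564.6, 642.2 and 596.6 CPM in siCHD4. Replicate 3 there lay among the siCHD4 libraries and closed the gap between the groups. KCTD20, FAT1, HEG1, MTMR4 and TEX2 were the corresponding genes called lower only without it, at -1.46 to -1.01 there and -1.21 to -0.86 with it. In the other direction, GM2A, RNLS, LPIN1, NCALD and MOB3B were called higher only with the library present (1.02 to 1.15 with it and 0.89 to 0.97 without), and SLC5A6, TTLL4, CSNK1E, PFAS and DPAGT1 lower only with it (-1.47 to -1.09 and -1.0 to -0.81). All these calls refer to the fits without a GC offset. With that offset, ST3GAL4, MS4A15 and KCTD20 were called with 6 libraries, and GM2A, RNLS, NCALD, SLC5A6, CSNK1E and PFAS without siCtrl replicate 3. The median GC content of transcripts was 54.9% for the genes gained as higher and 45.3% for those gained as lower when the library was left out, against 50.2% and 51.8% for the genes called in both fits.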

How the data were processed

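Total RNA from 501Mel cells was sequenced by the authors, and per the labels the reads were handled with CASAVA 1.8.2, cutadapt 1.10, Bowtie2 (2.1.0 and 2.2.8), TopHat2 2.0.10, HTSeq and DESeq2 on build hg19. Neither the annotation release nor the strand setting used for counting is stated in those sources, so both are not given here. The deposited table holds whole-number read counts per gene, a normalized signal (the authors' counts divided by a single size factor per library, to within a relative deviation of 5.11e-15), and that signal per kb of gene length. Its columns of log2 fold changes and p-values from the authors' own comparison were deposited as well and were not used.

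All tests started from the deposited counts. Low genes were removed by filterByExpr, TMM gave the scaling, and edgeR 4.0.16 (robust quasi-likelihood F-test, R 4.3.3) made the tests with Benjamini-Hochberg adjustment over all genes tested, first with 6 libraries and then without siCtrl replicate 3. Calls required an adjusted p below 0.05 together with a change of over 1 on the log2 scale in either direction. CPM in the text are TMM-scaled over all 6 libraries. Alternatives were RLE scaling, DESeq2 1.42.0, voom with sample quality weights (limma 3.58.1), no filter, a replicate block, a GC offset and leaving out each library. The same code was tested on simulated counts of 6 libraries with known rises and no GC tilt. It called 0% of 1.5-fold, 12% of 2-fold, 96% of 4-fold and 100% of 8-fold rises, and 11 unchanged genes. The limit of 1 on the log2 scale itself keeps out rises estimated under 2-fold. Coordinates and exon overlaps came from GENCODE v44lift37 on GRCh37, which held 96.5% of the 31911 genes, and promoter windows from RefSeq on GRCh38.p14, matched by symbol for 15813 genes. Named genes were the targets and study genes, per direction the 10 largest CPM differences and, among genes with a mean normalized count of at least 50 in the higher group, the 10 largest fold changes, both among genes called in both fits without overlap, up to 4 members per group, and the 5 most abundant genes per direction whose call depended on siCtrl replicate 3; genes named beyond this were chosen after their values were seen. The members and gene lists were chosen with earlier results of these data known.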

Additional observations from a re-analysis of the deposited data

How the results depend on the processing

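With 6 libraries 817 genes were called higher and 280 lower. Leaving out 1 library at a time gave 232 to 1551 higher and 29 to 536 lower. Voom with sample quality weights gave 1585 and 737, DESeq2 457 lower (1087 higher), the GC offset 423 lower, and the GC offset without siCtrl replicate 3 gave 1606 and 491. RLE scaling, no filter on low counts, the adjusted p alone and the GC offset with replicate block kept both counts within 1.5 times. The fit with a replicate block gave 491 higher and 111 lower, of which 489 and 109 were among the calls without the block. Same-numbered libraries hardly deviated together (correlations of 0.033, 0.02 and 0.023). The siCtrl deviations included the GC tilt of replicates 1 and 3, so these correlations cannot show whether same-numbered libraries were paired.

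Of 191 named genes, the number that lost the call was 6, 90 and 10 without siCtrl replicates 1, 2 and 3 and 93, 82 and 74 without siCHD4 replicates 1, 2 and 3, and it was 43 with the replicate block and 1 to 7 under each other alternative. Changes of sign were seen only in uncalled values. MITF (0.11 with 6 libraries, and -0.18 to 0.42 when a library was left out) was at -0.18 without siCtrl replicate 3, -0.01 with voom and -0.09 with the GC offset without siCtrl replicate 3, and BIRC7 (0.35, and -0.03 to 1.19 when a library was left out) was at -0.03 without siCtrl replicate 1. Why the counts fell without siCtrl replicate 2 or any of the siCHD4 replicates was not tested. With 3 libraries a group, no library was tested as an outlier. The voom sample weights were 0.227, 4.982 and 0.065 for siCtrl replicates 1 to 3 and 0.922, 3.507 and 4.194 for siCHD4 replicates 1 to 3.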

Other observations

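Of 14 serpins, protease inhibitors of blood and tissue, 4 were higher and 1 lower with 6 libraries and 5 and 1 without siCtrl replicate 3. SERPINA1, which encodes alpha-1 antitrypsin, stood at 0.275, 0.25 and 0.518 CPM in siCtrl and at 2.98, 2.58 and 2.82 CPM in siCHD4 (log2 fold change 3.07 and 3.42), and SERPINH1, the collagen chaperone, rose from 27.1 ± 5.87 to 64.6 ± 6.09 CPM (SD, n = 3 and 3). SERPINB2, the plasminogen activator inhibitor 2, fell from 5.27 ± 1.68 to 1.38 ± 0.341 CPM. Of other genes the naming rule gives, CA12, a carbonic anhydrase of the cell surface, rose from 0.253 ± 0.0271 to 2.94 ± 0.262 CPM, and CRYAB, the small heat shock protein alpha-B crystallin, from 14.4, 15.1 and 23.0 CPM to 92.6, 82.0 and 85.1 CPM (2.31 and 2.57).

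Among genes linked to the undifferentiated state of melanoma, 1 of 25 was higher and 2 lower with 6 libraries and 2 and 4 without siCtrl replicate 3. Leaving out single libraries gave 0 to 2 higher and 0 to 4 lower. Those called in both fits were PDGFRB (log2 fold change 1.65 with 6 libraries), JUN (-1.26) and F2RL1 (-2.62). JUN, a component of the AP-1 transcription factor, stood at 7.32, 9.10 and 10.9 CPM in siCtrl and at 3.56, 4.09 and 3.79 CPM in siCHD4, and its log2 fold change was -1.09 without siCtrl replicate 3. Of the YAP and TEAD target genes, 2 of 21 tested were higher with 6 libraries and 4 of 22 without siCtrl replicate 3, while 0 were lower in either. ANKRD1 and TGFB2 rose in both fits, with log2 fold changes of 3.77 and 1.96 with 6 libraries and 3.58 and 2.19 without siCtrl replicate 3.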
